A study of Homo sapiens with 16 samples.

Results

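The 10 genes described here encode the cyclins that drive the cell cycle and 2 of the kinases they activate. They are the D-type cyclins *CCND1*, *CCND2* and *CCND3*, the E-type cyclins *CCNE1* and *CCNE2*, the A-type cyclin *CCNA2*, the B-type cyclins *CCNB1* and *CCNB2*, and the kinases *CDK1* and *CDK2*. They were picked by gene symbol and not by a threshold on their values, though with earlier results of these data known, and all 10 were found among the 25369 genes of the count table. RNA was sequenced from TPC1 and K1, human papillary thyroid carcinoma lines that carry wild type p53, after 24 h with 0.2% DMSO as vehicle, 10 µM nutlin-3a, 25 µM GSK2830371 or the combination of both drugs. Nutlin-3a (called nutlin from here on) keeps MDM2 from binding p53, and GSK2830371 inhibits the phosphatase PPM1D, so that the 4 treatments separate the inhibition of each p53 repressor from that of both. Each of the 8 groups held 2 libraries, 16 in all. Each line is a single model, TPC1 was cultured in RPMI and K1 in DMEM, and line and medium cannot be told apart. The study's methods describe its replicates in general as biological ones made separately, while the labels only number them.

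Cyclins bind cyclin-dependent kinases and switch them on in a fixed order. Cyclin D with CDK4 or CDK6 and then cyclin E with CDK2 inactivate the retinoblastoma protein and open S phase, cyclin A serves DNA replication and passage through G2, and cyclin B with CDK1 starts mitosis. When p53 is active it induces p21, the CDK inhibitor encoded by *CDKN1A*, and genes of later cycle phases are then repressed through complexes of retinoblastoma family proteins with E2F factors or with the MuvB core, which read promoter elements such as the E2F site and the cell cycle genes homology region (CHR).

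Promoters of 5 genes that fell under nutlin in both lines are shown, so they were picked by the outcome. They were searched for these elements and for the CCAAT box. Whether any match had a part in the falls was not tested. The RefSeq table (build GRCh38.p14) holds 9 promoters of 6 of the 10 genes, and those of *CCND1*, *CCND2*, *CCNE2* and *CDK2* were not analysed here. The 250 bases before the start site are printed 5′ to 3′ on the gene's strand for 5 genes, with every match in capitals to the CHR (TTTGAA), the CCAAT box (CCAAT) or an E2F core, searched on both strands. The E2F core was searched as the letters TTCCCGC, as the letters TTGGCGC, as the letters TTCGCGC and as the letters TTGCCGC. Where the match lies on the other strand, its reverse complement is in capitals.
CCNB1, chr5:69166900-69167149, plus strand: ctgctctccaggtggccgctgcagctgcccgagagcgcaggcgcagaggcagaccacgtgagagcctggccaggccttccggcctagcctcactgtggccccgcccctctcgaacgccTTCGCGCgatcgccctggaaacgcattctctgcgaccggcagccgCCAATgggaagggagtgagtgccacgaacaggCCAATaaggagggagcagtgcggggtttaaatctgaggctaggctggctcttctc
CCNB2, chr15:59104896-59105145, plus strand: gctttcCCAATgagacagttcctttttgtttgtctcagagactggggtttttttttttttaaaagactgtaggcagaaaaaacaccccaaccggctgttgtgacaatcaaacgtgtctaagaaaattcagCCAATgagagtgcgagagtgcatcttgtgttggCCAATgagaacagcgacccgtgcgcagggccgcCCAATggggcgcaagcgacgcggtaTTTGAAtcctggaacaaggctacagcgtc
CDK1, chr10:60778228-60778477, plus strand: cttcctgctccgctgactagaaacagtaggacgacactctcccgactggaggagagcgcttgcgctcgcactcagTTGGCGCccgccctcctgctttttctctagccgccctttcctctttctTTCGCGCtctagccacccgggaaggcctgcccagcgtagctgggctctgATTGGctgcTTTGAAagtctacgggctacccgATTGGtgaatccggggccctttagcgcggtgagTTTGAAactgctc
CCNA2, chr4:121823884-121824133, minus strand: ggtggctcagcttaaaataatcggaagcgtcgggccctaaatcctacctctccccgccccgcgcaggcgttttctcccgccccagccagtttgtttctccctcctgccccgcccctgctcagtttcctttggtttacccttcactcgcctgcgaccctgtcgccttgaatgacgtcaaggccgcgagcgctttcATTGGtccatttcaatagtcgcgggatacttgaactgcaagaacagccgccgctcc
CCNE1, chr19:29811741-29811990, plus strand: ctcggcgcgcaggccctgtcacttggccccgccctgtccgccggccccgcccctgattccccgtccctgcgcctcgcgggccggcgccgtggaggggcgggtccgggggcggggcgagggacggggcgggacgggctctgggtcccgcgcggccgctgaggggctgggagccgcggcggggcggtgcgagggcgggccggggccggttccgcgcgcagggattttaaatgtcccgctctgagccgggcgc
The B cyclin promoters carried 2 and 4 CCAAT boxes, and that of *CCNB2* held a CHR at bases −29 to −24. The *CDK1* promoter shown, the second of 2 in the table, held 2 CHR matches, 2 CCAAT boxes and 2 E2F cores. The other *CDK1* promoter, not printed, held fewer, with 1 of each in its 250 bases. That of *CCNA2* held 1 CCAAT box at −56 to −52, and that of *CCNE1* held none of these letters. For *CCND3*, not printed and not called lower under nutlin, promoters 2 and 3 held 1 CCAAT box each and promoter 1 none of these letters. Among all 35116 promoters of the table, 13.3% had a CHR match, 32% a CCAAT box and 10.9% an E2F core in the same 250 bases. A match describes letters in the window, not a bound site. Only these exact letters were searched, so a promoter without a match may still hold such an element in another spelling.

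Library totals ran from 30789887 to 76648552 counts in TPC1 and from 28888686 to 37161241 in K1. Levels are given as counts scaled to a common library size (CPM), with TMM factors over all 16 libraries. Fold changes within a line come from a fit with TMM factors of that line alone, so ratios of the CPM given can differ from them somewhat. The thyroid factor gene *PAX8* stood at 322 ± 10.9 CPM in vehicle-treated TPC1 and 765 ± 32.7 CPM in K1 (SD, n = 2), while the thyrotropin receptor gene *TSHR* had no count in any library. Of 8 thyroid markers, 2 or 3 reached 1 CPM on average in each group. The summed level of 3 leukocyte markers stayed at or below 4.49 CPM, that of 3 fibroblast markers at or below 14.99 CPM and that of 2 endothelial markers at or below 0.169 CPM in every library. Of 6 epithelial markers, 3 reached 1 CPM on average in each group. The sum of the 6 was 769 to 926 CPM with vehicle, 614 to 677 CPM with nutlin and 435 to 519 CPM with the combination in TPC1. In K1 it was 1153 to 1228, 1229 to 1234 and 882 to 953 CPM. The sum hides unlike changes under nutlin in TPC1, from −1.13 to 1.93 on the log2 scale among the 5 markers tested. For the 8 thyroid markers the TPC1 sum was 339 to 353 CPM with vehicle and 504 to 507 CPM with nutlin. With the combination it was 332 to 370 CPM. In K1 the thyroid sum was 774 to 820, 873 to 878 and 785 to 821 CPM in that order. The fibroblast sum in TPC1 was 12.9 to 13.95 CPM with vehicle, 5.26 to 5.31 CPM with nutlin and 2.65 to 3.43 CPM with the combination. The part of these shifts in the drug responses was not tested. As a check of the drug, the p53 target *MDM2* had 131 CPM in vehicle-treated TPC1 and 4263 CPM under nutlin, and *CDKN1A* had 138 and 7000 CPM. The K1 values were 155 and 1275 CPM for *MDM2* and 113 and 1012 CPM for *CDKN1A*.

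**Figure D1:**
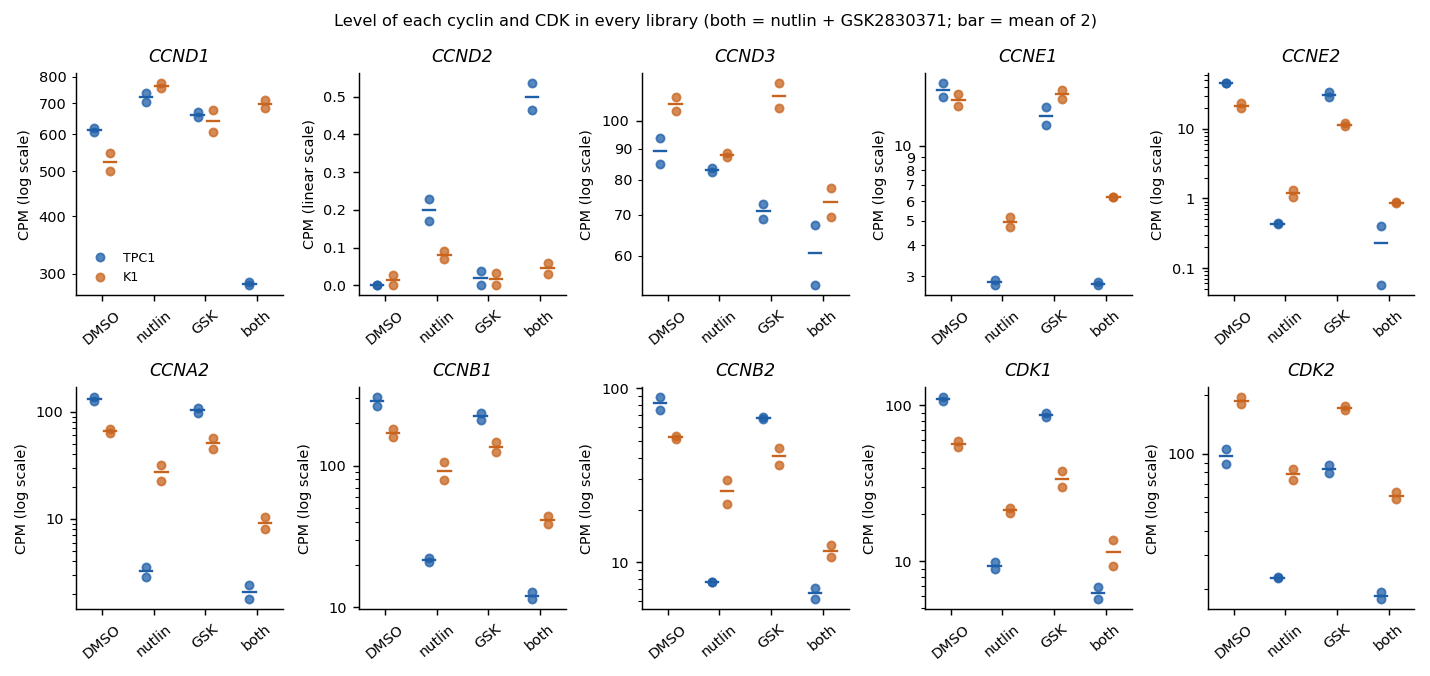
CPM of each of the 10 genes (y axes, logarithmic except for *CCND2*) in every library, by line and treatment (x axes). Each point is 1 library and each bar the mean of 2. *CCND1* fell only in the TPC1 libraries of the combination (283 and 288 CPM), whereas the E, A and B cyclins and both kinases were lower in every nutlin and combination library than in every DMSO library of the same line.

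Without a drug, levels per transcript length (RPKM, the CPM per kilobase of transcript) put *CCND1* first in both lines. In TPC1 it stood at 145 ± 2.25 RPKM and *CCNB1* at 140.4 ± 13.6 RPKM (SD, n = 2), and their libraries overlapped. *CDK1*, *CCNB2*, *CCNA2*, *CCND3* and *CDK2* followed between 58.1 and 43.4 RPKM, with neighbours that overlapped except *CCNB2* and *CCNA2*. This order depends on the length used. With the length of all merged exons, *CCNA2* stood at 47.6, *CCNB2* at 29.8, *CDK1* at 28.1, *CDK2* at 24.98 and *CCND3* at 15.5 RPKM. In K1 *CCND1* reached 123 ± 7.90 RPKM, ahead of *CCNB1* at 84.0 ± 7.52 and *CDK2* at 83.7 ± 4.79 RPKM, which overlapped each other but lay apart with merged exons (70.0 and 48.2 RPKM). The E cyclins were low in both lines, with *CCNE2* above *CCNE1* in TPC1 (16.9 ± 0.0472 against 8.60 ± 0.745 RPKM) and level with it in K1 (8.12 ± 0.988 against 7.84 ± 0.664 RPKM), though below it there with merged exons (4.94 against 6.23 RPKM). *CCND2* was all but silent: no count in the vehicle-treated TPC1 libraries, and at most 3 in any K1 library.

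Between vehicle-treated lines, K1 had less RNA of 5 of the 10 genes and more of 1, where 21.2% and 25% of the 16738 genes tested were called lower and higher. A gene is called where the quasi-likelihood test of edgeR, with p adjusted over all genes by Benjamini-Hochberg (BH), gave an adjusted p under 0.05 and the fold change exceeded 1.5. The ± after a log2 difference is its standard error. *CCNE2* was lower in K1 by −1.07 ± 0.138 on the log2 scale (edgeR, BH-adjusted p = 3.2e-06), *CCNA2* by −1.01 ± 0.145 (adjusted p = 1.2e-05) and *CDK1* by −0.97 ± 0.131 (adjusted p = 5.7e-06). *CCNB1* and *CCNB2* differed by −0.75 ± 0.125 and −0.67 ± 0.131, the second of which was not called without TPC1 DMSO replicate 3 (−0.55). *CDK2*, the partner of cyclins E and A, was the exception, higher in K1 by 0.94 ± 0.0945 (edgeR, BH-adjusted p = 1.8e-07). The proliferation markers *MKI67*, *TOP2A* and *PCNA* had a summed level of 1673 to 2016 CPM in vehicle-treated TPC1 and 992 to 1139 CPM in K1. Of these 3 markers, 1 was called lower in K1 (−1.24), and the others lay at −0.26 and −0.10. Their part in the difference was not tested. In bulk RNA, fewer cycling cells and less RNA per cell cannot be told apart, here and in every comparison that follows.

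Nutlin lowered 7 of the 10 genes in TPC1 and 7 of the 9 tested in K1, where 18% and 5.43% of all genes tested were called lower. These were in both lines the E, A and B cyclins and both kinases. No D cyclin was called lower. The median log2 fold change of the 9 genes other than *CCND2* was −3.48 in TPC1 and −1.26 in K1. The medians of all genes were −0.00185 and −0.0017, which the scaling keeps near 0 and which are thus no separate result. The summed level of the 3 proliferation markers went to 361 to 380 CPM under nutlin and 366 to 448 CPM under the combination in TPC1. In K1 it went to 486 to 573 and 359 to 407 CPM. The sum hides unlike changes. Nutlin lowered 2 of the 3 markers in each line, with the third at 0.56 in TPC1 and −0.12 in K1. Against nutlin, the combination lowered 2 of the 3 again, the lowest at −1.36 in TPC1 and −1.22 in K1. The third stood at 0.36 and 0.42 there, not called. Against DMSO the combination raised 1 of the 3 in TPC1 (0.92), where 22.5% of all genes were called higher. Against GSK2830371 it also raised 1 in TPC1 (1.19), where 19.5% were. In K1 the highest values of these 2 comparisons were 0.29 and 0.20, not called. The part of these markers in the changes was not tested.

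The E-type cyclins, which with CDK2 open S phase, responded unequally. *CCNE2* was at 45.3 and 45.1 CPM in the TPC1 vehicle libraries and at 0.442 and 0.425 CPM under nutlin, the latter from 13 and 26 counts. In K1 it went from 19.8 and 23.6 CPM to 1.35 and 1.04 CPM. Nutlin left 0.96% of the vehicle level in TPC1 and 5.50% in K1, and the libraries of the 2 treatments lay far apart. Its log2 fold changes were −6.77 ± 0.258 (edgeR, BH-adjusted p = 5.6e-08) and −4.19 ± 0.151 (adjusted p = 3.3e-10), the deepest among the 10 genes in either line. *CCNE1* went from 15.8 and 17.8 CPM to 2.76 and 2.91 CPM in TPC1, and from 14.4 and 16.2 CPM to 5.18 and 4.71 CPM in K1. It fell by 2.63 ± 0.120 and 1.63 ± 0.106 on the log2 scale. The balance of the pair shifted towards *CCNE1*. Per length, *CCNE2* RNA was 2.10 and 1.85 times that of *CCNE1* in vehicle-treated TPC1 and 0.117 and 0.107 times under nutlin, and in K1 it went from 1.01 and 1.06 to 0.190 and 0.161. Ratios of 2 against 2 libraries cannot reach an exact two-sided permutation p below 0.333, so such ratios are given as values.

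Cyclin A2, which serves S phase and G2, separated the lines most. *CCNA2* went from 126 and 136 CPM to 2.89 and 3.58 CPM in TPC1, 2.47% of the vehicle level, and from 68.6 and 62.9 CPM to 22.6 and 31.6 CPM in K1, 41.2% of it. All nutlin libraries lay below all vehicle libraries in each line, and the K1 nutlin libraries were well above those of TPC1 although K1 started lower. The log2 fold changes were −5.38 ± 0.139 (edgeR, BH-adjusted p = 8.6e-09) and −1.27 ± 0.141 (adjusted p = 1.3e-05).

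The mitotic cyclins fell in the same manner. *CCNB1* dropped in TPC1 from 265 and 304 CPM to 20.8 and 22.2 CPM and in K1 from 181 and 159.6 CPM to 78.8 and 106 CPM. *CCNB2* dropped from 75.4 and 88.7 CPM to 7.73 and 7.68 CPM and from 52.9 and 51.4 CPM to 21.6 and 29.7 CPM. In K1 nutlin thus left about as much cyclin B RNA as it removed, 54.1% for *CCNB1* and 49.2% for *CCNB2*, and in TPC1 it left 7.55% and 9.39%. The TPC1 log2 fold changes were −3.79 ± 0.0971 and −3.48 ± 0.103, and those of K1 were −0.88 ± 0.119 and −1.02 ± 0.132, with BH-adjusted p from 8.5e-09 to 7.6e-05 in edgeR. K1 nutlin replicate 2 was higher than replicate 1 for *CCNA2*, *CCNB1* and *CCNB2* alike.

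The kinases also lost RNA, *CDK2* less than *CDK1*. *CDK1*, the partner of cyclin B, went from 107 and 113 CPM to 8.88 and 9.88 CPM in TPC1 and from 59.1 and 54.2 CPM to 20.5 and 22.1 CPM in K1. *CDK2* went from 88.0 and 106 CPM to 22.8 and 23.2 CPM in TPC1 and from 195 and 179.9 CPM to 73.0 and 83.7 CPM in K1. Nutlin left 8.55% of *CDK1* and 23.7% of *CDK2* in TPC1, and nearly equal shares of 37.6% and 41.8% in K1. The log2 fold changes were −3.61 ± 0.101 and −2.14 ± 0.0972 in TPC1 and −1.41 ± 0.134 and −1.26 ± 0.0728 in K1, all called. Per length, *CDK2* RNA was 0.695 and 0.794 times that of *CDK1* in vehicle-treated TPC1 and 2.17 and 1.98 times under nutlin, while in K1 the ratio was 2.78 and 2.80 before and 2.996 and 3.19 after.

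The D-type cyclins, which answer to growth signals and act before the other cyclins, behaved otherwise. *CCND1* was at 620.1 and 607 CPM in vehicle-treated TPC1 and at 738 and 705 CPM under nutlin, with a log2 difference of 0.17 in the fit of that line (95% interval 0.00 to 0.34, edgeR, BH-adjusted p = 0.081). In K1 it stood at 499 and 547 CPM and at 774 and 754 CPM, a difference of 0.55 ± 0.0622 (edgeR, BH-adjusted p = 1.6e-05) that missed the 1.5-fold limit, except without K1 DMSO replicate 2 (0.62). All nutlin libraries lay above all vehicle libraries of the line, and 3.84% of all genes were called higher in K1. *CCND3* differed by −0.17 (95% interval −0.40 to 0.06) in TPC1 and by −0.28 ± 0.0654 in K1 (edgeR, BH-adjusted p = 0.0054), where both nutlin libraries lay below both vehicle libraries but the difference was under 1.5-fold. *CCND2* was called higher in TPC1, alone among the 10 genes where 17.5% of all genes were, but only on 5 and 14 counts under nutlin against 0 and 0. Taking 3 counts per library as the limit for a count of 0, this is at least 3.31-fold, and its level of 0.199 ± 0.0414 CPM stayed the lowest of the 10. It passed the filter on low counts in TPC1 only through treated libraries, and failed it in K1.

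**Figure D2:**
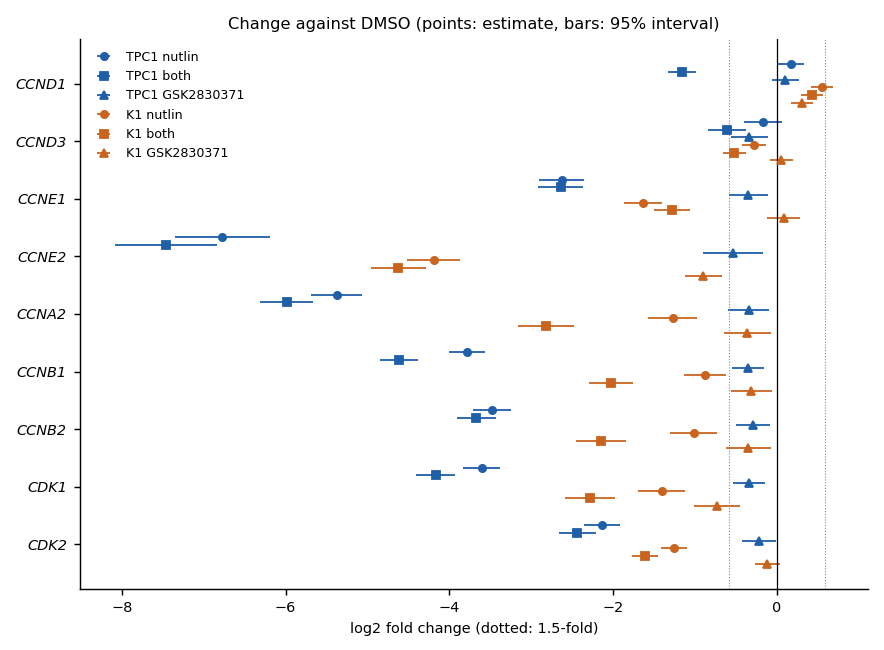
Log2 fold change against DMSO (x axis) of the 9 genes other than *CCND2* (y axis) under nutlin, GSK2830371 and the combination in each line. Points are estimates and bars 95% intervals from edgeR. Under nutlin *CCNE2* lies farthest to the left in both lines (−6.77 in TPC1, −4.19 in K1), and the lowest GSK2830371 point is *CCNE2* in K1 at −0.90. Dotted lines mark 1.5-fold.

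GSK2830371 by itself moved few of these genes. In TPC1 it called 0 of the 10 by edgeR and 0 by DESeq2, where 0.681% and 0.72% of all genes were called lower and higher (104 and 110 genes, or 241 and 239 with the replicate number as a block). These counts of all genes ran from 8 to 125 and from 14 to 128 when a library was left out, and were smallest without GSK2830371 replicate 3. The unadjusted p was under 0.05 for 8 genes, all with lower values under the drug. *CCNE2* had the lowest estimate, −0.53 (95% interval −0.90 to −0.17, edgeR, BH-adjusted p = 0.11), from 45.3 and 45.1 CPM to 29.0 and 33.5 CPM. The other 6 genes of the E, A and B cyclins and the kinases lay between −0.35 and −0.22, *CCND3* at −0.33 and *CCND1* at 0.11 (95% interval −0.06 to 0.27).

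In K1 GSK2830371 lowered 2 of the 9 genes tested, where 1.5% of all genes were called lower. *CCNE2* went from 19.8 and 23.6 CPM to 11.1 and 12.01 CPM, a log2 fold change of −0.90 ± 0.106 (edgeR, BH-adjusted p = 0.00034), and *CDK1* from 59.1 and 54.2 CPM to 29.99 and 37.8 CPM, a change of −0.73 ± 0.129 (adjusted p = 0.0020). Libraries of the 2 treatments did not overlap for either gene. Their transcripts have the lowest GC content of the 10 genes, 34.6% and 35.4%. After removal of the trend of fold change with GC content and transcript length, a step chosen after seeing the data, the values were −0.54 and −0.40 and neither was called, and *CDK1* was not called without GSK2830371 replicate 1 (−0.57). *CCNA2*, *CCNB1* and *CCNB2* had estimates of −0.36, −0.31 and −0.35 with 95% intervals that ran from −0.65 at the lowest to −0.06 at the highest, and *CCND1* was higher by 0.31 ± 0.0621 (edgeR, BH-adjusted p = 0.0041), below the 1.5-fold limit.

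Against DMSO the combination lowered 9 of the 10 genes in TPC1 and 7 of the 9 tested in K1, where 21.7% and 8.09% of all genes were called lower. *CCNE2* again had the deepest log2 fold changes, −7.46 ± 0.273 in TPC1 and −4.62 ± 0.157 in K1, with *CCNA2* next at −5.99 ± 0.145 and −2.82 ± 0.158. The TPC1 value of *CCNE2* rests on 2 and 23 counts under the combination, and was −6.89 without combination replicate 1 and −9.62 without replicate 3. In TPC1 *CCND1* and *CCND3* joined them, at −1.16 ± 0.0755 (edgeR, BH-adjusted p = 1.3e-06) and −0.61 ± 0.102 (adjusted p = 0.00060), the latter not called without DMSO replicate 3 (−0.55) or combination replicate 1 (−0.47). *CCND2* was higher in TPC1, where 22.5% of all genes were, with 19 and 27 counts or at least 8.32-fold. In K1 *CCND1* was at 0.43 ± 0.0621 and *CCND3* at −0.52 ± 0.0658, both short of 1.5-fold, although *CCND3* was called without combination replicate 1 (−0.61). Nutlin, GSK2830371 and the combination are all compared with the same DMSO libraries, so the shifts against DMSO are not independent of each other.

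Compared with GSK2830371 alone, which shows what nutlin adds once PPM1D is inhibited, the combination lowered 8 of the 10 genes in TPC1 and 7 of the 9 in K1, where 19% and 6.75% of all genes were called lower. The E, A and B cyclins and the kinases fell in both lines, from −2.22 for *CDK2* to −6.93 for *CCNE2* in TPC1 (−6.35 and −9.08 without combination replicate 1 or 3) and from −1.36 for *CCNE1* to −3.72 for *CCNE2* in K1. *CCND1* was at −1.26 ± 0.0757, called, in TPC1 and at 0.12 (95% interval −0.01 to 0.26) in K1. *CCND2* was called higher in TPC1, as were 19.5% of all genes. *CCND3* was at −0.28 ± 0.102 in TPC1 and −0.57 ± 0.0660 in K1, short of 1.5-fold, though the K1 value was called without GSK2830371 replicate 2 (−0.63) or combination replicate 1 (−0.66).

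The comparison of the combination with nutlin shows what GSK2830371 adds to active p53. It lowered 3 genes in TPC1, where 5.66% of all genes were called lower, and 4 in K1, where 1.52% were, and raised 0 by edgeR or by DESeq2, where 6.46% and 1.16% were called higher. In each line 1 gene with a higher value had an unadjusted p under 0.05. *CCND1* fell in TPC1, and *CCNA2*, *CCNB1*, *CCNB2* and *CDK1* fell in K1, with *CCNA2* and *CCNB1* lower in both. The median over the genes other than *CCND2* was −0.56 in TPC1 and −0.43 in K1, where all genes had medians of 0.0127 and 0.0044, kept near 0 by the scaling.

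*CCND1* gave the clearest contrast between lines. In TPC1 it was at 738 and 705 CPM under nutlin and at 283 and 288 CPM under the combination, 46.6% of the vehicle level. In K1 it was at 774 and 754 CPM and at 713 and 684 CPM, 134% of the vehicle level. The TPC1 libraries of the combination lay below all other *CCND1* libraries of either line, and those of K1 above the vehicle libraries. The difference between combination and nutlin was −1.33 ± 0.0758 in TPC1 (edgeR, BH-adjusted p = 1.3e-05) and −0.11 (95% interval −0.25 to 0.02) in K1. The lines differed in this by 1.22 ± 0.104 (edgeR, BH-adjusted p = 3.7e-06).

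Cyclins A and B fell further in K1, and for *CCNB2* the step was larger there than in TPC1. *CCNA2* went from 22.6 and 31.6 CPM under nutlin to 8.08 and 10.3 CPM under the combination in K1, and from 2.89 and 3.58 CPM to 1.78 and 2.41 CPM in TPC1. The log2 fold changes were −1.55 ± 0.165 (edgeR, BH-adjusted p = 0.00010) and −0.61 ± 0.155 (adjusted p = 0.019), the TPC1 value not called with a fit of the compared groups only (−0.62, adjusted p = 0.072), without nutlin replicate 3 (−0.44) or without combination replicate 1 (−0.45). *CCNB1* reached 39.0 and 43.98 CPM in K1 and 11.4 and 12.7 CPM in TPC1 under the combination, changes of −1.14 ± 0.125 and −0.83 ± 0.0938. *CCNB2* reached 10.7 and 12.5 CPM in K1, a change of −1.13 ± 0.148, and 6.15 and 7.17 CPM in TPC1, a difference of −0.19 (95% interval −0.43 to 0.05). The libraries of the combination lay below those of nutlin for each of these genes in each line. The lines differed by −0.94 ± 0.218 for *CCNB2* (edgeR, BH-adjusted p = 0.013), and by −0.93 ± 0.284 for *CCNA2* (adjusted p = 0.054), where 2.56% of the 16738 genes were called lower in K1 and 2.56% higher. For *CCNB1* the difference between the lines was −0.31 (95% interval −0.71 to 0.10, edgeR, BH-adjusted p = 0.39). With the replicate number as a block the *CCNA2* difference was called (edgeR, BH-adjusted p = 0.0076).

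Of the kinases and E cyclins, only *CDK1* in K1 was called. It went to 9.29 and 13.7 CPM in K1, a change of −0.87 ± 0.150 (edgeR, BH-adjusted p = 0.0024), and to 5.72 and 6.88 CPM in TPC1, a difference of −0.56 ± 0.102 that was under 1.5-fold but called without nutlin replicate 1 (−0.62), without combination replicate 3 (−0.69) or with the GC trend removed (−0.68). *CDK2* differed by −0.30 ± 0.0969 in TPC1 and −0.35 ± 0.0745 in K1, neither called. *CCNE1* was at −0.01 (95% interval −0.31 to 0.29) and at 0.35 (95% interval 0.10 to 0.61). *CCNE2* had 2 and 23 counts in the TPC1 combination libraries, 0.0564 and 0.396 CPM, and its difference of −0.69 (95% interval −1.80 to 0.42) was not resolved at this depth. Without combination replicate 3 it was called at −2.85, as was *CCND3* at −0.60, and 6 of the 10 genes were called lower in all.

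**Figure D3:**
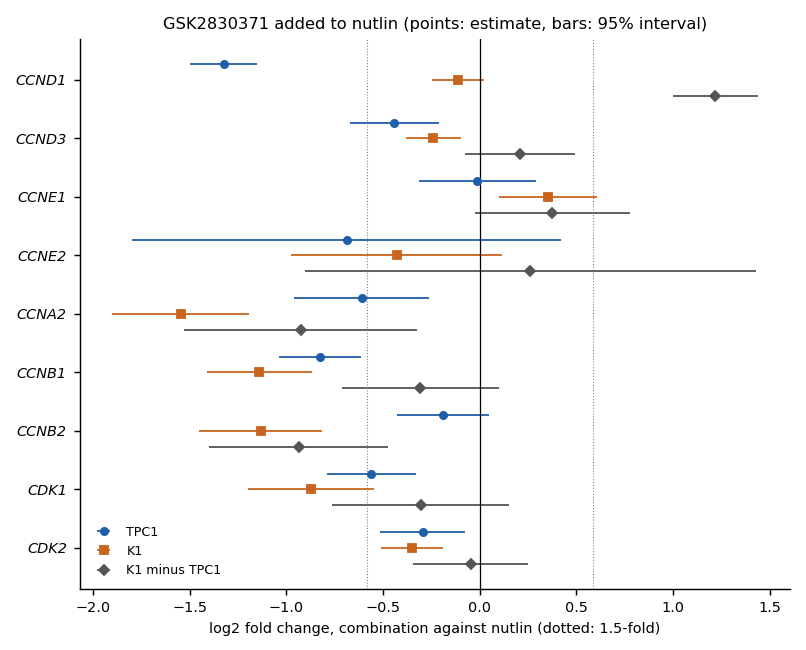
Log2 fold change of the combination against nutlin (x axis) for the 9 genes other than *CCND2* (y axis) in TPC1 and K1, and the difference between the lines in grey. Points are estimates, bars 95% intervals from edgeR and dotted lines the 1.5-fold limit. *CCND1* stands at −1.33 in TPC1 and −0.11 in K1, while *CCNA2* stands at −0.61 and −1.55.

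The interaction asks whether the log2 change under nutlin differs in the presence of GSK2830371 from that in its absence. A negative value means a lower change in its presence, which need not be a stronger one. In TPC1 it was called for 1 of the 10 genes, *CCND1* at −1.43 ± 0.106 (edgeR, BH-adjusted p = 0.00034), where 3.5% of all genes were called negative (534, or 859 with the replicate block and 193 to 657 with a library left out). In K1 it was called for 3 of the 9, *CCNA2* at −1.19 ± 0.214 (edgeR, BH-adjusted p = 0.0097), *CCNB1* at −0.83 ± 0.171 (adjusted p = 0.014) and *CCNB2* at −0.79 ± 0.196 (adjusted p = 0.028), where 0.654% were. The K1 calls rest on single libraries. Without nutlin replicate 2 the 3 values were −0.91, −0.59 and −0.53 and none was called. Without combination replicate 2, *CCNA2* alone was called, and *CCNB2* was also not called without either DMSO library or combination replicate 1. *CCND1* in K1 was at −0.42 ± 0.0877 (edgeR, BH-adjusted p = 0.014), under the 1.5-fold limit.

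Nutlin acted less on these genes in K1 than in TPC1, and this was tested as a difference between the lines. The nutlin response was higher in K1, that is the fall was smaller, for 7 of the 10 genes, where 8.73% of the 16738 genes tested were called in that direction. The difference was 4.06 ± 0.236 for *CCNA2* (edgeR, BH-adjusted p = 3.3e-09), 2.87 ± 0.184 for *CCNB1*, 2.54 ± 0.377 for *CCNE2*, 2.42 ± 0.200 for *CCNB2* and 2.16 ± 0.198 for *CDK1*. It was smaller for *CCNE1* (0.96 ± 0.171) and *CDK2* (0.85 ± 0.136), and *CCND1* and *CCND3* were not called at 0.34 and −0.14. *CDKN1A*, the gene of the inhibitor p21, rose by 5.61 in TPC1 and 3.16 in K1 in the same libraries. Its part in the difference between the lines was not tested. For the response to GSK2830371 alone the lines differed in 0 of the 10 genes by edgeR and by DESeq2, where 1.58% and 0.597% of all genes were called lower and higher (265 and 100, or 439 and 174 with the replicate block, and 23 to 600 and 30 to 178 with a library left out), and 2 genes had an unadjusted p under 0.05.

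Cyclin families were compared by their summed RPKM, as shares of the RNA of the 8 cyclins. In vehicle-treated TPC1 the D cyclins held 41.3% ± 2.0 and the B cyclins 42.7% ± 2.10 (SD, n = 2), with 10.4% for cyclin A and 5.58% for the E cyclins. In K1 the D share was 52.6% ± 2.65 and the B share 35.5% ± 2.64. Under nutlin the D share reached 91.9% ± 0.453 in TPC1 and 74.8% ± 4.13 in K1, and the B share was 6.87% and 20.9%. The shares hide different absolute changes. The summed D level was 189 RPKM with vehicle, 211 RPKM with nutlin and 97.3 RPKM with the combination in TPC1, and 176, 224 and 201 RPKM in K1. Cyclin B went from 196 to 15.8 and 10.4 RPKM in TPC1 and from 119 to 62.7 and 28.2 RPKM in K1. Under the combination the lines thus had D shares of 88.5% in TPC1 and 85.1% in K1. GSK2830371 alone left D shares of 47.5% and 62.1%.

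**Figure D4:**
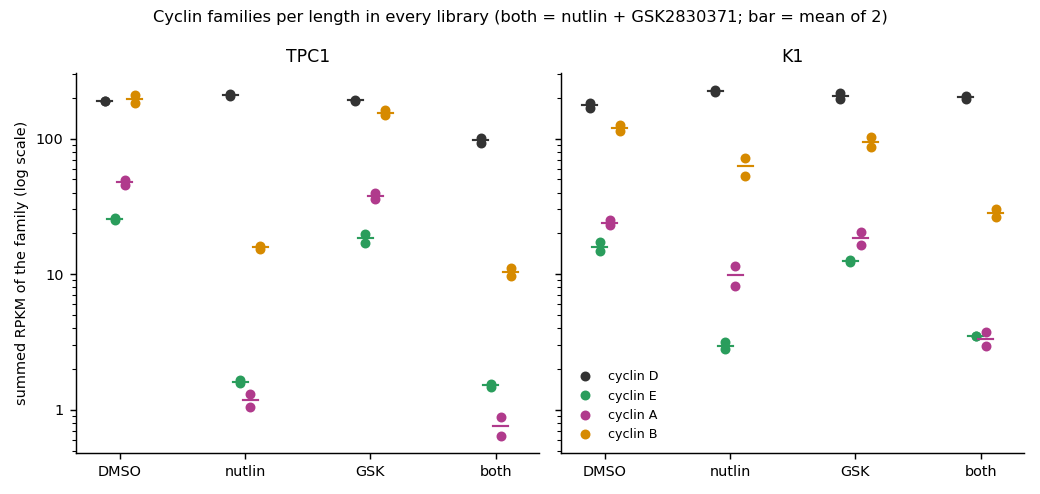
Summed RPKM of cyclins D, E, A and B (y axis, logarithmic) in every library of TPC1 and K1, by treatment (x axis). Points are libraries and bars means of 2. The D cyclins stay near the top of the plot, at 211 RPKM in TPC1 and 224 RPKM in K1 under nutlin, while cyclin B drops to 15.8 and 62.7 RPKM.

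Ratios within families and between the kinases add detail. *CCNB1* RNA was 2.58 and 2.52 times that of *CCNB2* per length in vehicle-treated TPC1, 1.98 and 2.12 times under nutlin and 1.36 and 1.299 times under the combination. In K1 this ratio stayed between 2.28 and 2.68 in all 8 libraries. *CCND1* was 3.49 and 3.09 times *CCND3* in vehicle-treated TPC1, 4.27 and 4.03 times under nutlin and 2.53 and 2.04 times under the combination, whereas in K1 it went from 2.30 and 2.39 to 4.18 and 4.13 and then to 4.39 and 4.70. The *CDK2* to *CDK1* ratio in K1 was 4.72 and 3.92 under GSK2830371 and 5.30 and 3.88 under the combination, above the vehicle values of 2.78 and 2.80. These ratios were not tested, and their size, though not their change between treatments, depends on the transcript length used.

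**Figure D5:**
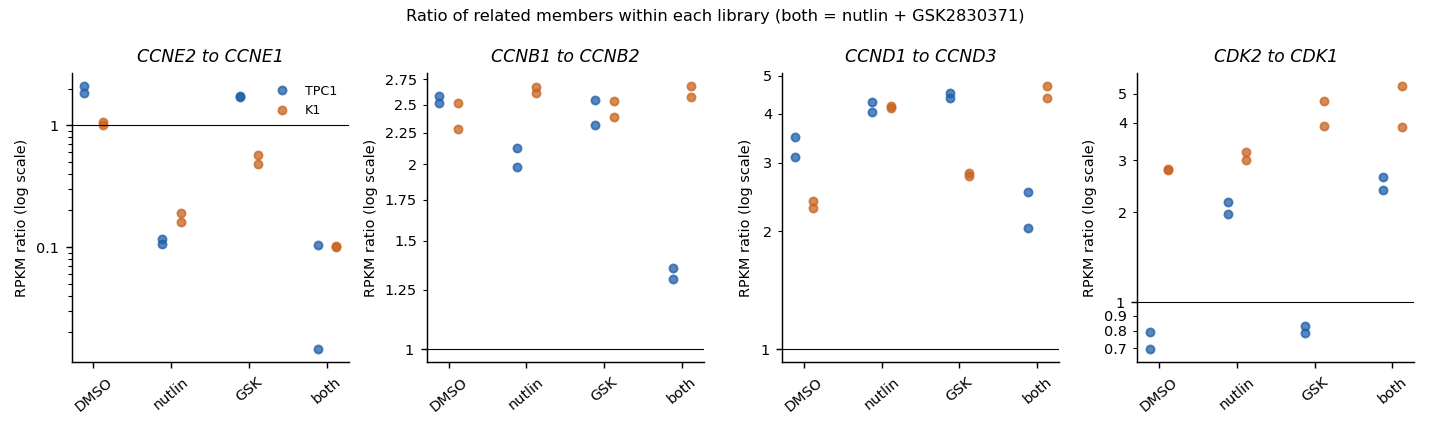
Ratios of RNA per transcript length (y axes, logarithmic) between members of a pair in every library, by line and treatment (x axes). Each point is 1 library, and the horizontal line marks equal levels. The *CCNE2* to *CCNE1* ratio drops below 0.2 under nutlin and the combination in both lines, and the *CCNB1* to *CCNB2* ratio drops in TPC1 only.

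Over the 16 libraries, the log2 levels of the E, A and B cyclins and the kinases, centred within each line, moved together, with Pearson's r from 0.916 to 0.997 over 21 pairs. *CCND1* was only loosely tied to them (r from 0.196 to 0.411), and *CCND3* more closely (0.536 to 0.645). *CCND2*, with 3 counts or fewer in every K1 library, was left out. The libraries share 4 treatments, so these values describe groups as much as libraries. Among 11611 genes outside the 10, the patterns most like each member were those of *HJURP*, *BUB1* and *CDCA3* for *CCNA2* (r = 0.999 to 0.998), *CDCA3*, *PLK1* and *PRC1* for *CCNB1*, *TPX2*, *RACGAP1* and *BUB1B* for *CCNB2*, and *KIF11*, *NUSAP1* and *KIAA1524* for *CDK1*. *CCNE2* ran with *ATAD2*, *MCM6* and *FAM111B* (r = 0.997 to 0.996), *CCNE1* with *ZMYND19* and *PSMG1*, and *CDK2* with *DNAJC9*, *RNASEH2A* and *C16orf59*. The closest patterns to *CCND3* were *LMCD1*, *POLDIP3* and *OPN3* (r = 0.968 to 0.944) and to *CCND1* those of *LOC101927642*, *OAT* and *FAM98A* (r = 0.942 to 0.922).

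Genes that act on the cyclins and their kinases were followed from 4 lists, where nutlin lowered 18% and raised 17.5% of all genes in TPC1 and 5.43% and 3.84% in K1. In TPC1 the share raised was below that of all genes in the first 3 lists and level with it in the fourth, and in K1 at most 1 gene of a list was raised. Of 22 partners, activators and inhibitors of the cell cycle CDKs, nutlin lowered 11 and raised 3 in TPC1, with a median log2 fold change of −0.55. In K1 it lowered 9 and raised 1 of 20 tested (median −0.52). The phosphatase genes *CDC25A* and *CDC25C*, which remove inhibitory phosphates from CDKs, fell by 4.07 and 3.96 in TPC1, and *CDC25A* fell by 2.34 in K1 together with *PKMYT1* (−1.76), which encodes a kinase that adds such phosphates to CDK1. The inhibitor genes *CDKN1A* (5.61) and *CDKN1C* (3.08) rose most in TPC1, and *CDKN1A* (3.16) rose alone in K1. *CDKN2A*, whose products include the CDK4 and CDK6 inhibitor p16, was at 243 CPM in vehicle-treated TPC1 and at 0.0566 CPM in K1. A count per gene does not separate its products.

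Of 13 genes of cyclin degradation, nutlin lowered 7 and raised 1 in TPC1 (median −0.75) and lowered 4 and raised 1 in K1 (median −0.21). *FBXO5*, the inhibitor of the anaphase-promoting complex, fell in both (−4.61 and −1.91), as did its activator *CDC20* in TPC1 (−4.37) and its ubiquitin-conjugating enzyme *UBE2C* in K1 (−1.14). *FBXW7*, which marks cyclin E for degradation, rose by 1.31 in TPC1 and 1.07 in K1. Of 22 transcriptional regulators of cyclin genes, nutlin lowered 13 and raised 2 in TPC1 (median −0.72) and lowered 10 and raised 0 in K1 (median −0.50), where 1 gene with a higher value had an unadjusted p under 0.05. *E2F2*, an activator of S phase genes, fell by 6.89 and 4.69, *MYBL2*, of the activating MuvB complex, by 4.79 in TPC1, and *E2F8*, a repressor, by 2.71 in K1. *E2F7* (0.91) and *LIN37* (0.61), which act in repression, rose in TPC1. The 23 cyclins and CDKs of transcription or without a settled role in the cycle served as a contrast. Nutlin raised 4 and lowered 2 in TPC1 (median −0.01) and raised 1 and lowered 0 in K1 (median −0.05), where 8 with lower values had an unadjusted p under 0.05. *CDK18* (2.23) and the p53 target *CCNG1* (1.83) rose most and *CDK16* (−0.82) and *CDK10* (−0.61) fell in TPC1, and *CCNG1* (0.93) rose in K1.

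Against nutlin, the combination lowered 5 and raised 2 of the 22 partners in TPC1 and lowered 5 and raised 1 of 20 in K1, where 5.66% and 6.46% of all genes were called lower and higher in TPC1 and 1.52% and 1.16% in K1. *CDC25C* (−1.58) and *PKMYT1* (−0.76) fell and *CDKN1A* (0.87) and *CKS1B* (0.65), a CDK subunit gene, rose in TPC1. In K1 *CCNF* (−0.98) and *CDC25B* (−0.88) fell and *CDKN1A* (0.60) rose. Among degradation genes *CDC20* and *UBE2C* fell in both lines, by 0.73 and 0.71 in TPC1 and by 1.34 and 1.25 in K1, with *FBXO5* higher in TPC1 (0.62), so that 2 fell and 1 rose in TPC1 and 3 fell in K1. Of the regulators *FOXM1*, which drives cyclin B genes, fell (−1.16) and *E2F7* rose (0.71) in TPC1, 1 of 22 each way and so below the shares of all genes, and 0 of 22 were called by edgeR in K1, where 7 had an unadjusted p under 0.05. Of the 23 cyclins and CDKs outside the cycle, edgeR called 0 in either line, with an unadjusted p under 0.05 for 7 in TPC1 and 3 in K1.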

How the data were processed

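Polyadenylated RNA of the TPC1 and K1 lines was sequenced as stranded, single-end reads of 150 bases. The deposited values are raw read counts per gene. Per their methods and processing notes, the authors aligned reads to GRCh37 (hg19) with TopHat2 2.0.13, dropped those with a mapping quality under 10, identified duplicates with Picard and counted reads with HTSeq 0.6.1 in its reverse stranded mode. TPC1 columns are numbered 1 and 3 where the labels number replicates 1 and 2, so the columns numbered 3 were given a treatment but no named sample, and TPC1 libraries carry the column numbers.

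Genes above 0.1 CPM in at least 2 libraries were kept (15273 in TPC1, 15900 in K1, 16738 over both) and fitted with TMM scaling and edgeR 4.0.16 (R 4.3.3), by quasi-likelihood tests with Benjamini-Hochberg adjustment over all genes kept. The treatments of a line shared a fit, with 4 residual degrees of freedom, and line differences were taken from a fit of all 16 libraries. Calls need an adjusted p under 0.05 and a fold change above 1.5. RPKM used the length of the canonical transcript in GENCODE. Steps were tested on simulated data. The 10 genes and the lists (partners, degradation, regulators, other cyclins and CDKs, markers) were chosen with earlier results of these data known. All members were named, with at most 2 increases and 2 decreases of each list per line and the 3 genes of most similar pattern (not for *CCND2*, at too few counts), by Pearson's r of log2(CPM + 0.5) among genes averaging 1 CPM or more in both lines, of which 1 is not reported here. Alternatives were DESeq2 1.42.0, its size factors, scaling by library size, other filters, fits of the compared groups only, each library left out and the replicate number as a block. Removal of the trend with GC content and length, known for 86.4% to 87.1% of genes tested, and lengths of merged exons were chosen after seeing the data. Same-numbered TPC1 libraries deviated together from the group means (r of 0.493 to 0.698 over 12320 genes, all 6 pairs of treatments), whereas those of K1 did not (−0.359 to 0.381 over 12525 genes). The numbers may thus pair the TPC1 libraries, but the main fits left this out, and only the block among the alternatives includes it. In TPC1 the number also goes with depth, 30789887 to 36896529 counts for replicate 1 and 62853375 to 76648552 for replicate 3. Limits for counts of 0 cover counting error only.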

Additional observations from a re-analysis of the deposited data

Results flagged for a closer look

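The response to nutlin was called higher in K1 for 7 of the 10 genes, where 8.73% of the 16738 genes tested were. The test was the interaction of line and treatment in edgeR, BH-adjusted over these 16738 genes. K1 minus TPC1, on the log2 scale, the response differed by 4.06 for *CCNA2*, 2.87 for *CCNB1*, 2.54 for *CCNE2* and 2.42 for *CCNB2*. It differed by 2.16 for *CDK1*, 0.96 for *CCNE1* and 0.85 for *CDK2*. Every gene fell in both lines and fell further in TPC1.

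The step from nutlin to the combination differed between the lines for 2 genes by the same test, where 2.56% of all genes were called in each direction. For *CCND1* the difference was 1.22, from −1.33 in TPC1 and −0.11 in K1. For *CCNB2* it was −0.94, from −0.19 in TPC1 and −1.13 in K1, and the call was lost when certain single libraries were left out, as listed below.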

How the results depend on the processing

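Of 2709 values of the 10 genes under alternatives, 2666 kept their direction and side of the threshold, 22 lost a call, 21 gained 1, and 0 called values turned sign. The genes called lower in K1 than in TPC1 for the combination against nutlin numbered 2 instead of 1 with DESeq2 size factors, edgeR's filterByExpr, no filter, the DESeq2 Wald test, the replicate block or the GC trend removed, and 0 to 2 when a library was left out. *CCNB2* was not called there without TPC1 nutlin replicate 3, TPC1 combination replicate 3, K1 nutlin replicate 2 or K1 combination replicate 1. The 2 genes called lower by GSK2830371 in K1 became 0 with the GC trend removed and 1 to 2 with a library left out. Leaving out a library gave 2 to 6 genes lower for the combination against nutlin in TPC1 (2 to 4 under the other alternatives), 0 to 1 higher under nutlin in K1, and 0 to 3 with a negative interaction in K1, where *CCNB2* also lost its call with the GC trend removed (adjusted p = 0.081). Scaling by library size alone shifted the combination against GSK2830371 in TPC1 by a median of −0.10 over the genes other than *CCND2*, and no other comparison by more than that. The replicate block changed no other call of the 10 genes. A group reduced to 1 library was assumed to vary like the other groups. The cause of these shifts was not tested. Below about 0.1 CPM, 3 counts or fewer, levels of *CCND2* and of *CCNE2* under the combination in TPC1 are limited by depth.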
